A study of Mus musculus with 8 samples.

Results

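The antioxidant defence of the mouse outer medullary collecting duct was followed through 40 genes, named one by one in a list. The list holds NRF2 regulators and targets, glutathione and other antioxidant enzymes, and oxidase genes. The 40 genes were found by symbol among the 55291 symbols of the expression tables, and 39 of them passed the expression filter that left 13401 genes for testing. They comprise the regulators Nfe2l2 and Keap1, the quinone reductase Nqo1, glutathione synthesis and recycling, the thioredoxin system, glutathione peroxidases, superoxide dismutases and catalase, peroxiredoxins, glutathione transferases, NADPH supply, heme and iron handling, and 2 NADPH oxidase genes. The rule that names these genes uses no measured value, although the list was chosen with earlier results of these data known.

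RNA was sequenced from outer medullary collecting ducts (OMCD), the part of the duct system that crosses the outer medulla of the kidney and adjusts the salt, water and acid content of urine. All mice were wild-type C57BL/6J. One group of 4 libraries came from mice on a normal-salt diet (0.3% salt) and the other group of 4 from mice on a high-salt diet (3% salt) given for 3 days before dissection. Each library held 100 to 120 microdissected tubules of a single mouse, so every p-value rests on 4 mice against 4. Neither the age nor the sex of the mice is given in the sources used. Libraries are called by diet and by the number in their column name, with 1, 2, 3 and 6 on the normal-salt columns and 2, 3, 4 and 6 on the high-salt columns.

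NRF2, the product of Nfe2l2, is a transcription factor that KEAP1 binds and delivers for degradation. Oxidants and electrophiles modify KEAP1, NRF2 then accumulates in the nucleus and, paired with a small MAF protein, binds antioxidant response elements near genes for glutathione synthesis, thioredoxin reduction, quinone reduction and NADPH supply. The kidney medulla works at low oxygen and high osmolality, and superoxide and hydrogen peroxide made there act on salt transport and blood flow.

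High salt left no member past the adjusted threshold. Of the 39 tested members, 0 were called at an adjusted p under 0.05 (limma, Benjamini-Hochberg adjustment over all 13401 genes), where 0.0821% of all genes were called, and the smallest adjusted p of a member was 0.463. Taken without adjustment, 1 member was under 0.05, Txnrd1, against 10.3% of all genes in either direction. Its mean was higher under high salt, as in 5.95% of all genes, with another 4.37% lower at that threshold. No member had diets without overlap in CPM (counts relative to the total of their library), against 6.40% of all genes. Mean log2 levels were higher under high salt in 21 members and lower in 18, with a median difference of 0.02 on the log2(CPM + 1) scale, beside 0.01 over all genes tested. Sizes were small as well: the median absolute log2 difference was 0.09 in the members and 0.12 over all genes. The 95% interval of the difference lay within 1.5-fold of no change in either direction in 32 of the 39 members (82.1%), beside 70.2% of all genes. In whole-duct RNA, fewer cells of a type and less RNA per cell cannot be told apart, and these values are shares of all duct RNA.

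**Figure D1:**
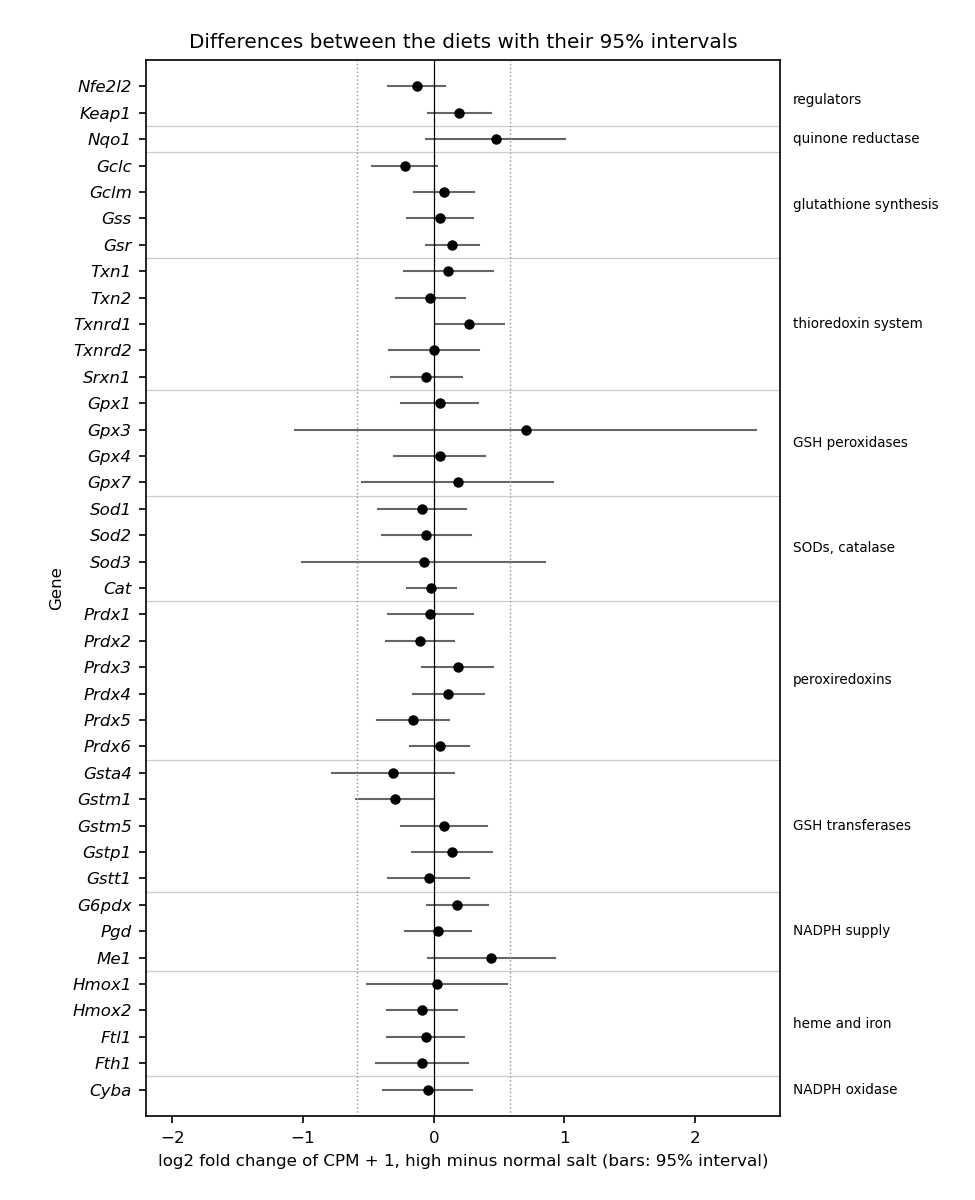
Difference between high and normal salt for each of the 39 tested members on the log2(CPM + 1) scale, grouped by role, with points for the estimate, bars for the 95% interval and dotted lines at 1.5-fold in either direction. For 32 members the interval lies between the dotted lines, and the widest belongs to Gpx3, from -1.06 to 2.47.

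The libraries were deep and alike in scale. Recovered totals were 64.8 to 94.1 M estimated counts, with a mean of 80.8 ± 12.4 M on the normal-salt diet against 76.5 ± 7.93 M on the high-salt diet (SD, n = 4 each), and the lowest total was that of normal-salt library 1. The duct label was checked against markers: Aqp2, the water channel of principal cells, stood at 9979 ± 2119.9 CPM under normal salt and 15689 ± 1618 under high salt. Slc4a1, the anion exchanger of acid-secreting intercalated cells, stood at 2709 ± 525 CPM under normal salt and 2721.5 ± 443 under high salt. Principal-cell markers summed to 18450 to 23578 CPM under normal salt and 27445 to 32055 under high salt, while intercalated-cell markers summed to 11349 to 12152 and 9561 to 11394. The principal-cell markers did not move as one: Aqp2, Aqp3 and Kcnj1 had log2 differences of 0.67, 0.68 and 0.61, whereas Hsd11b2, Avpr2 and Fxyd4 were within 0.05 of 0 and Scnn1b was at -0.49, none of them called (smallest limma adjusted p 0.0937). The intercalated-cell markers did not move as one either. Rhcg and Atp6v1b1 had log2 differences of -0.56 and -0.40, whereas Slc4a1, Aqp6 and Car2 were at 0.01, 0.10 and -0.03. None of these was called (smallest limma adjusted p 0.109). RNA of another segment, the thick ascending limb, was present too. Its markers summed to 1004.5 to 2641 CPM under normal salt. In high-salt libraries 2, 3, 4 and 6 they summed to 436, 511, 756 and 3215 CPM. The part of these differences in markers in any value below was not tested.

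The regulators were both well expressed and showed no called difference. Nfe2l2 (chr2:75675513-75704641, minus strand, mm10) encodes NRF2 itself. It stood at 247, 238, 219 and 263 CPM in normal-salt libraries 1, 2, 3 and 6 and at 238, 192, 213 and 242 CPM in high-salt libraries 2, 3, 4 and 6. The diets overlapped, and the log2 difference was -0.13 (95% interval -0.35 to 0.09, limma adjusted p = 0.71). Keap1 (chr9:21229730-21239361, minus strand) encodes the sensor that holds NRF2 in check. Its values were 60.9, 47.5, 54.8 and 56.6 CPM under normal salt and 57.1, 65.5, 57.8 and 72.2 CPM under high salt. Normal-salt library 1 lay among the high-salt values, and the log2 difference was 0.20 (SE 0.11, interval -0.05 to 0.44, limma adjusted p = 0.588). Per transcript length, Nfe2l2 stood at 174 ± 20.5 TPM (CPM corrected for transcript length) under normal salt and Keap1 at 27.1 ± 2.34 TPM.

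Because NRF2 acts through a short DNA element, the promoters of the members were searched for its core, TGACNNNGC, on both strands. Promoter sequences were those of RefSeq on GRCm38.p6, from 250 bases before to 50 bases after the start that each RefSeq entry gives, and 34 of the 40 members matched, 7 of them with more than 1 promoter. Gclc, Gsr, Sod3, Prdx6, Gsta4 and Hmox1 had no entry. The core was found in 10 of the 34 matched members (29.4%), beside 17.1% of the tested genes and 14.0% of all genes with a promoter entry. Each stretch is written 5′ to 3′ on the strand that reads TGACNNNGC, with the core in capitals and 10 bases on either side. They are shown because they are the places where letters of the element occur near a RefSeq start of these genes.
Nfe2l2, chr2:75704885-75704913: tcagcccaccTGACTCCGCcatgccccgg
Srxn1, chr2:152105542-152105570: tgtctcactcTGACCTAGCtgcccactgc
Gstm5, chr3:107895802-107895830: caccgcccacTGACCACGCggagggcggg
Gclm, chr3:122245413-122245441: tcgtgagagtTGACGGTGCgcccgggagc
Prdx1, chr4:116685456-116685484: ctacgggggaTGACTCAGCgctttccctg
Pgd, chr4:149166061-149166089: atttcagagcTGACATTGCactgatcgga
Me1, chr9:86695902-86695930: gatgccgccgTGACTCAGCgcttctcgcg
Txnrd1, chr10:82859104-82859132: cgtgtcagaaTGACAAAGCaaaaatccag
Sod1, chr16:90220696-90220724: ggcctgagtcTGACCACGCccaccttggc
G6pdx, chrX:74428919-74428947: gcgtgtgcttTGACTGAGCtgacccgcct

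Prdx1 and Me1 carried the same 9 letters, TGACTCAGC, and these contain TGACTCA, the element bound by AP-1 factors, so the 2 motifs overlap there. Counted from the start of the RefSeq entry, with negative positions before it, the core lay at -133 to -125 in Prdx1, at -92 to -84 in Txnrd1 and at -6 to 3 in Me1. That start need not be the outer end of the gene in the GENCODE annotation: the stretches of Srxn1, Pgd, Me1, Txnrd1 and G6pdx lie inside the annotated gene. The core of Txnrd1 lies 25163 bases and that of Pgd 692 bases past the annotated gene's 5′ end, so for these genes the search covered an internal start. In Srxn1, Gclm, Prdx1, Txnrd1, Sod1 and G6pdx the core was read on the strand opposite to the gene. A match describes letters in a window and is no evidence of binding, and the absence of a match says only that these letters are not in that window. The 10 members with the core had a median log2 difference of 0.05 (range -0.13 to 0.44), with 6 higher and 4 lower under high salt. The 23 tested members that matched without it had a median of 0.0027, with 12 higher and 11 lower. A wider stretch is given for Prdx1, the member with the sequence TGACTCAGC and the fourth highest TPM, and for Txnrd1, the member with the smallest p, each 200 bases on the gene's strand with the core in capitals as GCNNNGTCA. They cover chr4:116685399-116685598 and chr10:82859006-82859205, both on the plus strand.
Prdx1: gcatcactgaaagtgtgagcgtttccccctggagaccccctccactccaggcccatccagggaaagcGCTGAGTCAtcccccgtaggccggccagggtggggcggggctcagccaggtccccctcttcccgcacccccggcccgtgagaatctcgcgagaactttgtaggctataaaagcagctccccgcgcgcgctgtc
Txnrd1: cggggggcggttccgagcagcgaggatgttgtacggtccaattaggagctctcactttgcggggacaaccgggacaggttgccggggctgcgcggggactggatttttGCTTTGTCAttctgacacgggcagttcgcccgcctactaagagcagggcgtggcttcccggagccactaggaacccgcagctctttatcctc

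Among the classic NRF2 targets, Nqo1 (chr8:107388225-107403206, minus strand), which reduces quinones by a transfer of electron pairs, had the second largest mean difference after Gpx3. Nqo1 stood at 34.6, 29.9, 45.5 and 16.7 CPM under normal salt and at 36.9, 46.0, 43.3 and 41.8 CPM under high salt. Normal-salt library 3 lay within the high-salt range and normal-salt library 6 far below it, so the spread was 11.9 CPM (SD) under normal salt and 3.80 CPM under high salt. The log2 difference of 0.47 (SE 0.24, interval -0.06 to 1.00) did not pass the test (limma adjusted p = 0.54). Me1, the cytosolic malic enzyme that supplies NADPH, had a like pattern; its values by library, like those given below for Gstm1, Prdx3, Prdx4 and Nox4, were chosen after their values were seen. Me1 stood at 12.5, 12.6, 20.6 and 8.29 CPM under normal salt and at 15.4, 17.3, 20.8 and 18.2 CPM under high salt. As with Nqo1, normal-salt library 3 overlapped the high-salt values and library 6 was the lowest, and the log2 difference was 0.44 (SE 0.22, limma adjusted p = 0.533). Hmox1, the inducible heme oxygenase, gave 14.4, 14.7, 8.16 and 8.99 CPM under normal salt and 12.6, 7.03, 14.4 and 13.1 CPM under high salt. Its diets covered the same range, with a log2 difference of 0.02 (interval -0.51 to 0.56).

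Glutathione is built by glutamate-cysteine ligase, with the catalytic subunit Gclc and the modifier subunit Gclm, followed by glutathione synthetase (Gss), and is kept reduced by glutathione reductase (Gsr). Gclc (chr9:77754535-77794485, plus strand) stood at 295, 377, 378 and 372 CPM under normal salt and at 352, 276, 298 and 291 CPM under high salt. The values of 3 normal-salt libraries were above every high-salt value, and library 1 was among the high-salt values. The log2 difference of Gclc was -0.22 (SE 0.11, interval -0.47 to 0.03, limma adjusted p = 0.54), and the two-sided exact permutation test gave p = 0.0857, where 0.0286 is the smallest that 4 against 4 libraries allow. Without normal-salt library 1 it was -0.31, with a limma adjusted p of 0.170, the lowest of any member in any alternative analysis. Gclm stood at 79.0, 66.4, 83.1 and 66.6 CPM under normal salt and at 76.1, 69.6, 82.9 and 82.2 CPM under high salt, with a log2 difference of 0.08. The sign therefore differed between the catalytic and the modifier subunit, with overlap between diets in each. Gss had means of 30.4 ± 3.91 CPM on normal salt and 31.2 ± 2.01 CPM on high salt, and Gsr had 56.0 ± 5.33 and 61.7 ± 2.69 CPM (log2 difference 0.14, limma adjusted p = 0.644).

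**Figure D2:**
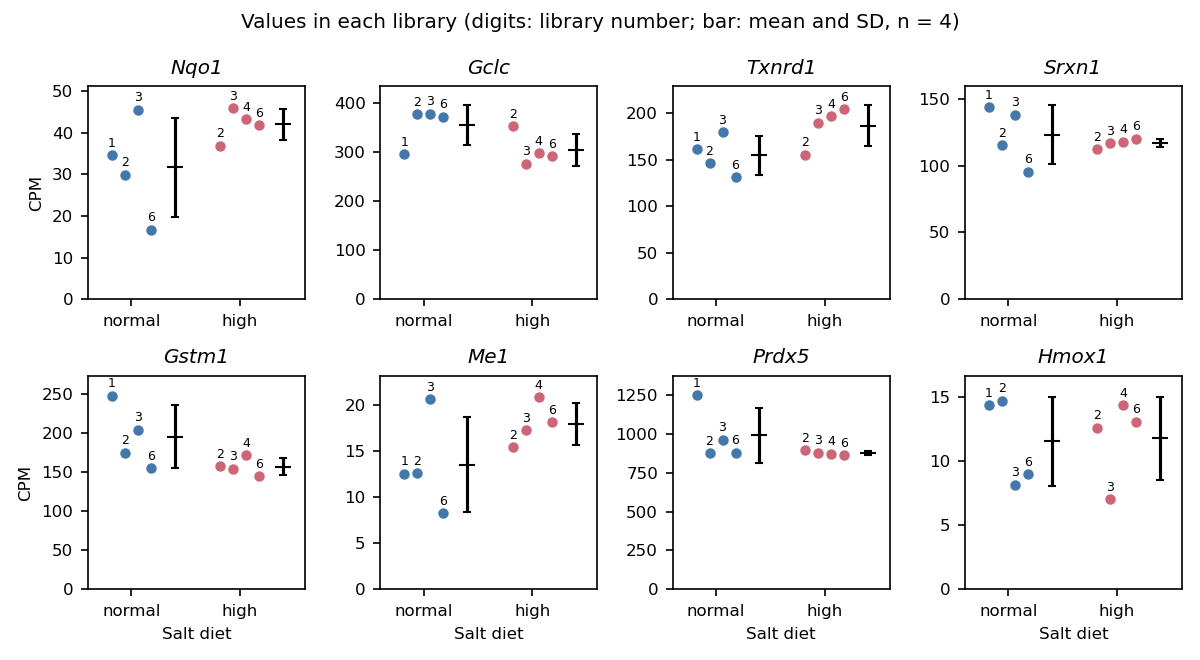
CPM of 8 members (Nqo1, Gclc, Txnrd1, Srxn1, Gstm1, Me1, Prdx5 and Hmox1) in each library, with the library number at each point and the mean and SD of each diet (n = 4) beside the points. The diets overlap in each panel, and normal-salt library 1 departs from the other 3 normal-salt libraries in Gclc, at 295 CPM against 372 to 378.

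The thioredoxin system hands electrons from NADPH through thioredoxin reductase to thioredoxin and on to peroxiredoxins. Txnrd1 (chr10:82833951-82897712, plus strand), the cytosolic reductase, stood at 162, 147, 179.5 and 131 CPM under normal salt and at 156, 190.2, 197 and 205 CPM under high salt. High-salt library 2 lay inside the normal-salt range and the other 3 high-salt libraries above it. The log2 difference was 0.27 (SE 0.12, interval 0.01 to 0.54, limma adjusted p = 0.463), and the exact permutation test gave p = 0.0857. Txn1, cytosolic thioredoxin, gave 185, 121, 146 and 103 CPM under normal salt and 136, 151, 154 and 146 CPM under high salt. The high-salt values lay inside the wider normal-salt range, and the log2 difference was 0.11 (limma adjusted p = 0.853). Srxn1, the sulfiredoxin that repairs overoxidised peroxiredoxins, gave 144, 115, 138 and 95.4 CPM under normal salt and 113, 117, 118 and 120.2 CPM under high salt, again inside the normal-salt range, with a log2 difference of -0.06. The mitochondrial partners Txn2 (136 ± 24.8 and 132 ± 5.10 CPM) and Txnrd2 (13.4 ± 3.08 and 13.2 ± 0.856 CPM) had log2 differences of -0.03 and 0.0027.

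Peroxiredoxins reduce peroxides, mostly with electrons from thioredoxin, and their levels ran from Prdx5, the second highest member per length, to Prdx4, at 19.5 ± 0.978 TPM under normal salt. Prdx5, found in mitochondria, peroxisomes and cytosol, stood at 2188 ± 215 TPM under normal salt, rank 38 of all genes. In CPM it gave 1252, 876, 964 and 881 under normal salt and 897, 881, 874 and 865 under high salt. The high-salt libraries lay close together and normal-salt library 1 stood above the rest, with a log2 difference of -0.16 (limma adjusted p = 0.717). Prdx1 had 652 ± 83.5 TPM under normal salt and 686 ± 10.2 under high salt. Prdx2 had 380.4 ± 41.1 and 353 ± 9.86 TPM, and Prdx6, which also has phospholipase activity, had 214 ± 31.8 and 224 ± 11.1 TPM. Prdx3, the mitochondrial member, had 122 ± 21.1 CPM under normal salt and 137 ± 8.83 CPM under high salt, with a log2 difference of 0.18 (SE 0.12, limma adjusted p = 0.661). Prdx4, the member of the endoplasmic reticulum, had 10.3 ± 1.36 and 11.1 ± 0.309 CPM.

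The TPM scale separated the diets more for some members than the CPM scale, and it moved genes at large upwards under high salt too. In the TPM fit 59.7% of all genes had higher means under high salt, as had 24 of the 39 members. The median log2 difference over all genes was 0.05 there. In the CPM fit 52.8% of all genes were higher, with a median of 0.01. In TPM, Prdx3 stood at 154, 156, 152 and 125 under normal salt and at 164, 183, 179 and 165 under high salt. Prdx4 stood at 20.1, 19.2, 20.4 and 18.3 TPM under normal salt and at 22.5, 22.5, 21.4 and 20.8 TPM under high salt. Those were the 2 of 39 tested members whose diets did not overlap in TPM. That share is below the 5.92% of all genes with a TPM of at least 1 in 4 libraries. Both overlapped in CPM. With limma on TPM, 5 members were under an unadjusted p of 0.05, beside 9.02% of all genes, namely Txnrd1, Gstm1, Prdx3, Me1 and Nqo1. Their log2 differences on that scale were 0.35, -0.29, 0.24, 0.52 and 0.52, and 0 members were called, with a smallest adjusted p of 0.449.

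Glutathione peroxidases use glutathione to reduce hydrogen peroxide and lipid peroxides. Gpx1, the widespread cytosolic and mitochondrial enzyme, stood at 203, 147, 144 and 124 CPM under normal salt and at 155, 164, 161 and 148 CPM under high salt. Normal-salt library 1 was the highest of all 8, and the log2 difference was 0.04 (limma adjusted p = 0.939). Gpx4, which protects membranes from lipid peroxides, had 317 ± 68.1 TPM under normal salt and 317 ± 36.0 TPM under high salt. Gpx7, of the endoplasmic reticulum, was low at 1.56 ± 0.903 and 1.96 ± 1.10 CPM.

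Gpx3 (chr11:54902453-54910377, plus strand), the secreted peroxidase that the kidney makes mainly in the proximal tubule, varied more than any other member. It gave 19.2, 7.75, 2.42 and 5.24 CPM under normal salt and 1.63, 14.6, 10.5 and 55.1 CPM under high salt. Its largest value, in high-salt library 6, was far above the next, 19.2 CPM, and the diets overlapped across the range. The log2 difference of 0.70 (SE 0.80, interval -1.06 to 2.47, limma adjusted p = 0.812) changed with single libraries. It was -0.0082 without high-salt library 6 and 1.46 without high-salt library 2. Without library 2, Gpx3 had an unadjusted limma p under 0.05, as did 8.86% of all genes, and the smallest adjusted p of a member was 0.367. Summed levels of the 11 proximal-tubule markers were 103, 31.4, 3.18 and 32.8 CPM in the normal-salt libraries and 12.1, 7.77, 87.4 and 145.5 CPM in the high-salt libraries in the same order. Of those 11 markers 4 were tested, and Slc5a12 was at 0 in every library. A single marker, Kap, was the largest part of each sum. It gave 83.5, 24.1, 2.11 and 27.5 CPM under normal salt and 8.91, 4.91, 70.4 and 89.3 CPM under high salt. High-salt library 6 had the largest marker sum and the largest Gpx3 value, while high-salt library 3 had a low marker sum beside 14.6 CPM of Gpx3. The part of proximal tubule RNA in the Gpx3 values was not tested.

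**Figure D3:**
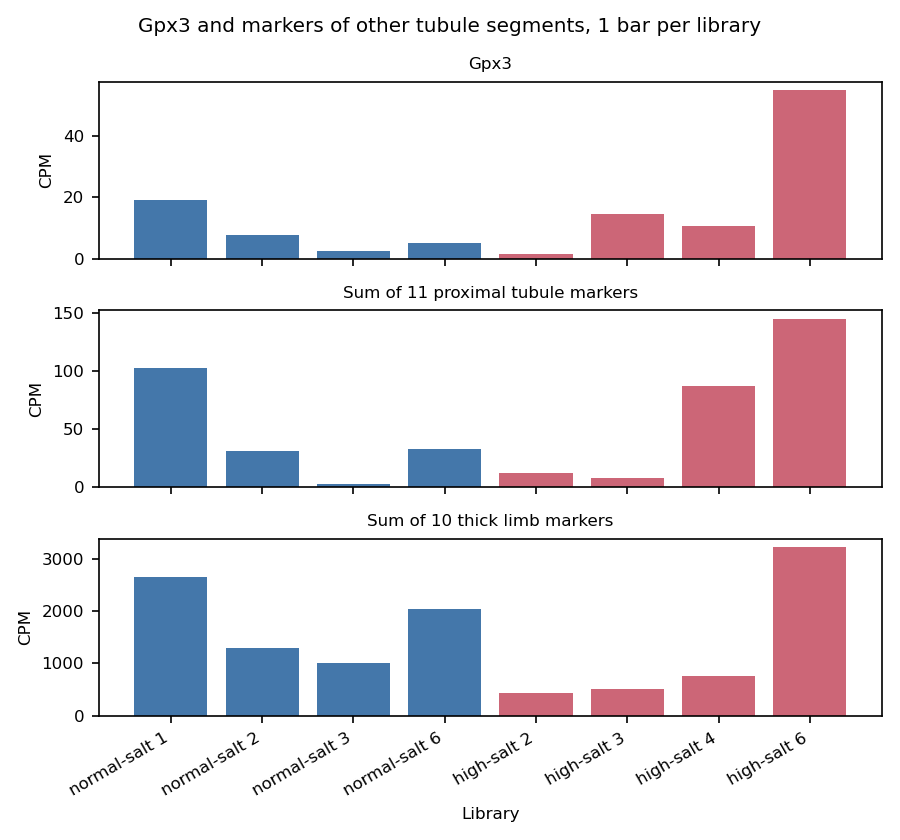
CPM of Gpx3 (top), summed CPM of 11 proximal-tubule markers (middle) and summed CPM of 10 thick-ascending-limb markers (bottom), 1 bar per library, with normal salt in blue and high salt in red. High-salt library 6 is the highest in each panel, at 55.1, 145.5 and 3215 CPM. Kap is the largest part of each sum in the middle panel.

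Superoxide dismutases turn superoxide into hydrogen peroxide, and catalase breaks hydrogen peroxide down. Sod1, the cytosolic copper-zinc enzyme, stood at 172, 108, 121 and 98.0 CPM under normal salt and at 108, 111, 122 and 117 CPM under high salt. The diets overlapped, with normal-salt library 1 above the rest and a log2 difference of -0.09 (interval -0.42 to 0.24). Sod2, the mitochondrial manganese enzyme, had 334 ± 71.8 TPM under normal salt and 354 ± 39.8 TPM under high salt, close to the 392 ± 66.7 TPM of Sod1 under normal salt. Sod3, the extracellular enzyme, was near 1 TPM (1.15 ± 0.466 and 1.25 ± 0.798). Cat stood at 134 ± 9.78 CPM and 132 ± 7.06 CPM, the smallest relative spread of these 4 under normal salt, with a log2 difference of -0.02 (interval -0.20 to 0.17).

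Glutathione transferases join glutathione to electrophiles. Gstt1 was the highest member of this group per length, at 623 ± 85.2 TPM under normal salt and 610.1 ± 26.6 under high salt. Its CPM values were 488, 325, 304 and 328 under normal salt and 332, 349, 371 and 332 under high salt, so that 1 normal-salt library stood above all others (log2 difference -0.04). Gstm1 (chr3:108012255-108017973, minus strand) gave 248, 175, 205 and 155 CPM under normal salt and 158, 155, 172 and 145 CPM under high salt. The diets overlapped, with normal-salt library 6 among the high-salt values. The log2 difference of Gstm1 was -0.29 (SE 0.14, interval -0.59 to 0.00, limma adjusted p = 0.491; exact permutation p = 0.0857). Gsta4, which acts on the lipid peroxidation product 4-hydroxynonenal, had 15.5 ± 4.21 and 12.3 ± 3.55 CPM, a log2 difference of -0.31 that did not pass the test (limma adjusted p = 0.668). Gstp1 (103 ± 21.4 and 111 ± 7.73 CPM) and Gstm5 (12.3 ± 2.31 and 12.9 ± 1.15 CPM) had log2 differences of 0.14 and 0.08. Transferase genes of the mu and pi classes have near-identical copies, and no source used here says how the authors' counting divided reads among them, so these levels are uncertain.

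NADPH for both systems comes from the pentose phosphate pathway and malic enzyme. G6pdx, the first enzyme of that pathway, had 53.1 ± 6.07 CPM under normal salt and 60.1 ± 4.44 CPM under high salt (log2 difference 0.18, limma adjusted p = 0.6). Pgd, the next NADPH-producing step, gave 137, 109.7, 137 and 98.8 CPM under normal salt and 115, 128, 123 and 124 CPM under high salt. The high-salt values lay inside the normal-salt range, with a log2 difference of 0.03. All 3 members of this group, Me1 included, had higher means under high salt, and 0 of the 3 passed the test.

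The ferritin subunits, which store iron in a form that cannot drive radical chemistry, were the most abundant members per length together with Prdx5. Fth1, the heavy chain with ferroxidase activity, had 2284 ± 379 TPM under normal salt and ranked 36 of all genes, and Ftl1, the light chain, had 1939 ± 214 TPM and ranked 44. In CPM, Fth1 gave 1523, 904, 1077 and 952 under normal salt and 939, 1102, 963 and 1105 under high salt. Normal-salt library 1 was again the highest, the diets overlapped, and the log2 difference was -0.09 (interval -0.45 to 0.27). Ftl1 had 1019.6 ± 168 and 971 ± 88.1 CPM. Ferritin genes have many processed copies in the genome, and reads shared with them make these levels uncertain. Hmox2, the constitutive heme oxygenase, had 85.2 ± 8.60 TPM under normal salt against 12.4 ± 3.49 TPM of the inducible Hmox1.

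NADPH oxidases make superoxide and hydrogen peroxide. Nox4, the oxidase best known from kidney, was under the filter, at 0.478, 0.258, 0.276 and 0.190 CPM under normal salt and 0.114, 0.279, 0.136 and 0.723 CPM under high salt. The diets overlapped widely, and Nox4 was tested only in the alternative without a filter, where its log2 difference was -0.0046 (limma adjusted p = 0.992). Cyba, the membrane partner p22phox of several oxidases, gave 16.0, 12.0, 17.0 and 11.3 CPM under normal salt and 12.7, 15.8, 12.3 and 13.0 CPM under high salt, a log2 difference of -0.05 with overlapping diets.

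**Figure D4:**
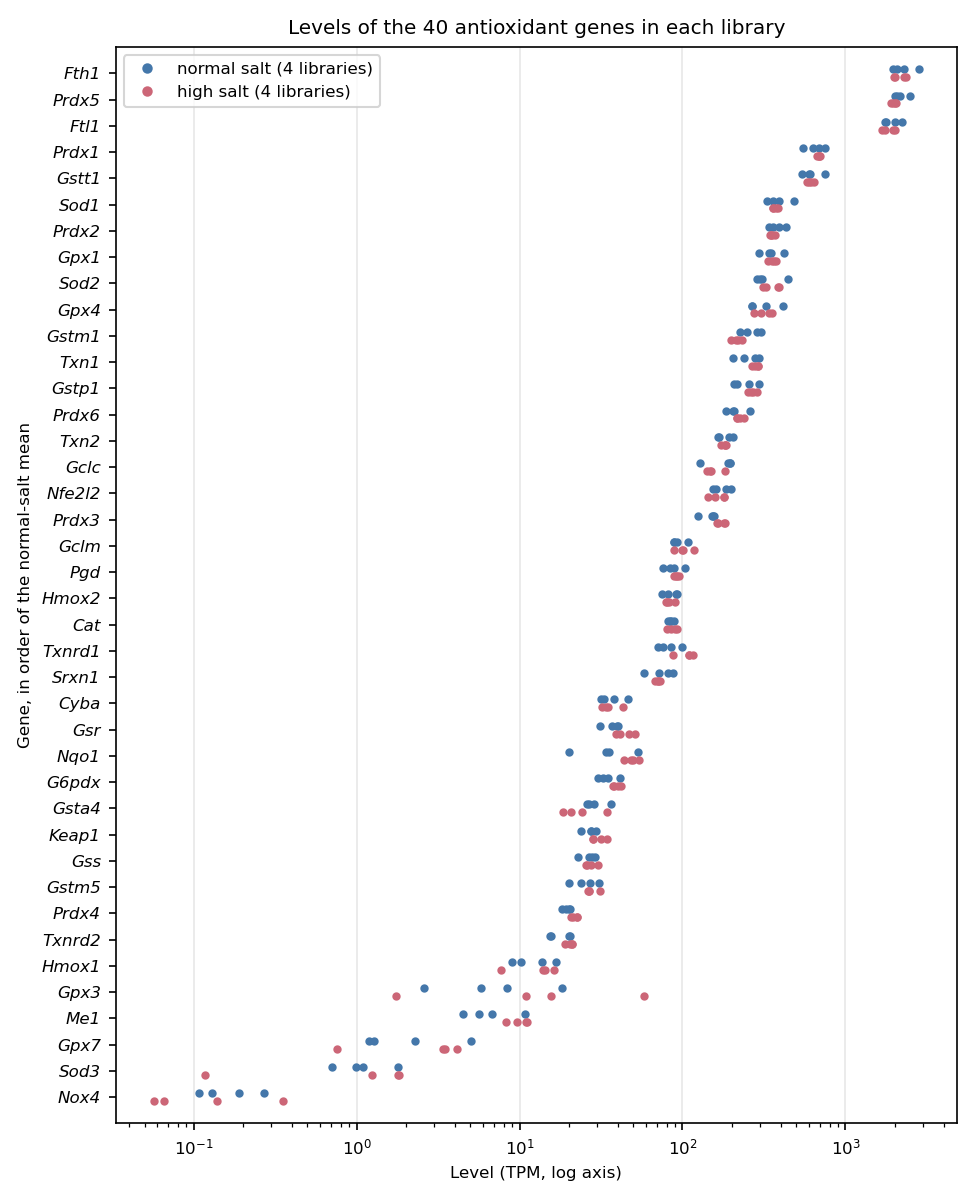
TPM of the 40 members in each library on a log axis, 1 point per library, with normal salt in blue, high salt in red and genes in the order of the normal-salt mean. Normal-salt means run from 0.174 TPM for Nox4 to 2284 TPM for Fth1, and the points of the diets overlap in nearly all genes, Prdx3 and Prdx4 being the exceptions among the tested members.

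Levels spanned several orders of magnitude among the members. Under normal salt, 3 members were above 1000 TPM (Fth1, Prdx5 and Ftl1), 18 were above 100 TPM and 5 were below 10 TPM. Neighbours in this order often lay within their spread: Prdx1 (652 ± 83.5 TPM) and Gstt1 (623 ± 85.2) differed by less than 1 SD, as did Fth1 and Prdx5. Nfe2l2 (174 ± 20.5 TPM) and Gclc (177 ± 32.6) were at a like level.

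The members varied together from library to library, mainly under normal salt. The median SD of log2 levels within a diet was 0.27 in the members under normal salt and 0.10 under high salt, beside 0.22 and 0.15 over all genes tested. The SD was larger under normal salt in 32 of 39 members (82.1%), beside 67.4% of all genes. Normal-salt library 1 had the highest value of its diet in 27 of the 39 members (69.2%), beside 35.0% of all genes, and normal-salt library 6 the lowest in 26 (66.7%), beside 26.7% of all genes. The median deviation of the members from their mean over the 8 libraries was 0.26 in library 1 and -0.24 in library 6 (log2), while that of all genes was -0.01 and 0.0038. In TPM, where all genes of library 1 had a median deviation of -0.19, the members had one of 0.07, and library 1 was the highest of its diet in 15 members (38.5%, beside 18.6% of all genes) and library 3 in 17 (43.6%, beside 20.4%). Library 6 was the lowest in 23 members in TPM (59.0%, beside 17.3% of all genes). These shares are descriptions of 8 libraries, since the members share each library.

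**Figure D5:**
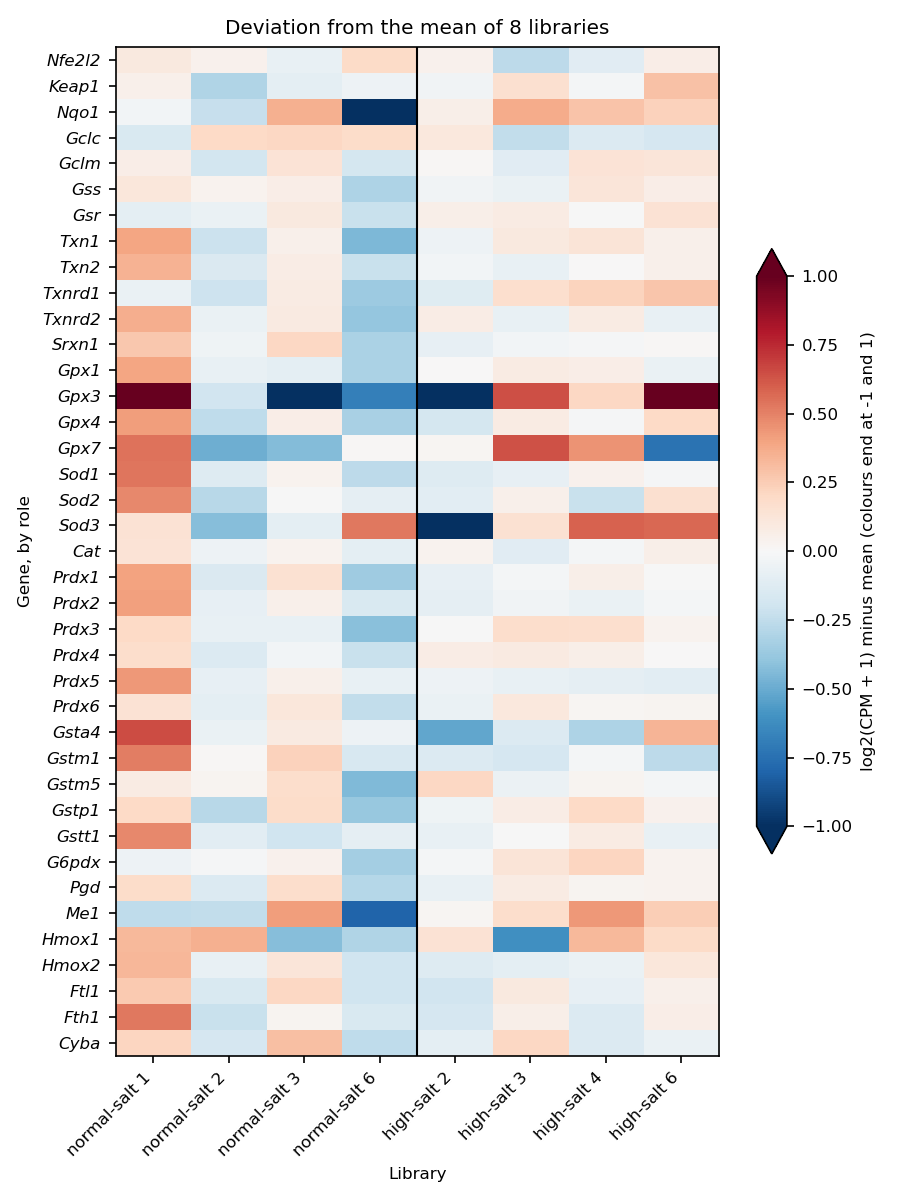
Heat map of log2(CPM + 1) of each tested member (rows, by role) in each library (columns) minus its mean over the 8 libraries, in red above and blue below the mean, with colours ending at -1 and 1. Normal-salt library 1 is mostly red (median 0.26) and normal-salt library 6 mostly blue (median -0.24).

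The sign of many differences between diets changed with single libraries. Without normal-salt library 1, 33 members were higher and 6 lower under high salt, where 51.4% of all genes were higher. Then 6 members had an unadjusted limma p under 0.05, beside 13.5% of all genes: Gclc at -0.31, Prdx3 at 0.28, Txnrd1 at 0.30, Txn1 at 0.26, Keap1 at 0.25 and Gpx1 at 0.18. None of these 6 passed the adjusted threshold, which 0.373% of all genes passed in that analysis. Without normal-salt library 6, 13 members were higher and 26 lower, and Gstm1 alone was under an unadjusted 0.05. Library 1 also had the largest sums of fibroblast and pericyte markers (297 CPM against 37.0 to 55.9 in the other normal-salt libraries) and of macrophage markers (89.2 CPM against 36.5 to 40.2), besides the lowest total count. The part of these in the members' values was not tested.

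Further genes of like roles, 117 in a list of regulators, targets, transferases and redox enzymes, were examined in the same fit. Of the 88 that were tested, 0 were called, 44 were higher and 44 lower under high salt, and 13 had an unadjusted p under 0.05 (5 higher and 8 lower), beside 10.3% of all genes (5.95% higher and 4.37% lower). In 11 of the 88 (12.5%) the diets did not overlap in CPM, beside 6.40% of all genes. The lower ones included 4 transferases: Gsta3 (112 ± 19.2 CPM on normal and 78.6 ± 6.18 CPM on high salt, log2 difference -0.49, limma adjusted p = 0.163), Gstm2, Mgst1 and Gstz1. Gstm2 gave 1090.5, 742, 722 and 674 CPM under normal salt and 566, 544, 595 and 527 CPM under high salt. Every normal-salt library was above every high-salt library, with a log2 difference of -0.51 (SE 0.14, limma adjusted p = 0.216). Mgst1 and Gstz1 each had a log2 difference of -0.28 (limma adjusted p = 0.414 and 0.467). Over members and further genes together, 19 of 24 transferases were tested, and 9 had higher and 10 lower means. Of the 19, 4 were under an unadjusted 0.05, all lower, beside 10.3% of all genes in either direction and 4.37% lower. In 3 of the 19 (15.8%) the diets did not overlap in CPM, beside 6.40% of all genes. These were Gsta3 and Gstm2, both lower, and Gstt3, which was higher (191 ± 19.6 and 219 ± 12.6 CPM, log2 difference 0.20, limma adjusted p = 0.506).

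The other genes on the lower side included Abcc3, an exporter of glutathione and glucuronide conjugates (log2 difference -0.51, limma adjusted p = 0.214), Btrc, a ubiquitin ligase subunit that also acts on NRF2 (-0.27), and the methionine sulfoxide reductase Msrb2 (-0.39). On the higher side were the thioredoxin-glutathione reductase Txnrd3, from 35.3 ± 3.25 to 45.8 ± 4.89 CPM (log2 difference 0.36, limma adjusted p = 0.223), and the sestrin Sesn1, from 37.2 ± 4.05 to 49.5 ± 5.73 CPM (0.40, adjusted p = 0.216). Me2, the mitochondrial malic enzyme, had 23.1 ± 3.30 and 31.0 ± 0.883 CPM (0.42, limma adjusted p = 0.202). Oplah and Lap3, which act in the turnover of glutathione and peptides, each had a difference of 0.26. None of the 13 passed the adjusted threshold. Of 14 further NADPH oxidase genes, only Noxo1 and Rac1 were tested, and Cybb, the phagocyte oxidase, ranged from 0.190 to 3.22 CPM over the 8 libraries. Slc7a11, the cystine importer and a widely used NRF2 target, was under the filter and was not tested in the main fit. It ranged from 0.176 to 0.850 CPM under normal salt and from 0.0407 to 0.231 CPM under high salt.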

How the data were processed

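RNA was measured in 8 OMCD libraries, 4 per diet, made with a stranded mRNA kit per the labels' protocols. The submitters' processing notes name FastQC, Trimmomatic and the mm10 build. No source used here gives the aligner, counting program, strand setting or annotation. What the authors deposited was a CPM table, whose values are on a log2 scale with a floor of -5.29, and a TPM table rounded to 3 decimals. Linear CPM had been assumed, so 2 was raised to each deposited value, the floor was subtracted and libraries were scaled to 1 M. Recovered estimated counts were not all whole, so no count model was run. Genes with CPM of at least 1 in 4 of 8 libraries were compared by limma 3.58.1 (R 4.3.3) after log2(CPM + 1) (trend, two-sided, Benjamini-Hochberg), after a test on simulated data. This scale understates changes of low genes. For single members a two-sided exact permutation test of the difference in means over the 70 assignments was added. Column names gave diets but not sample titles, so columns were assigned to diets. Errors are SD, n = 4.

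The members and the lists were chosen with earlier results of these data known. Values by library are given for members with an unadjusted p under 0.05, diets without overlap or a log2 difference of at least 0.5, for Nfe2l2, Keap1, Nqo1, Hmox1, Gclc, Gclm, Txnrd1 and Srxn1, and for the member of highest TPM in each role. Of the further genes, those called or under an unadjusted 0.05 are named, except 1 that is not reported here. Gene positions are from GENCODE M21. By that annotation 11 members overlap exons of a gene on the opposite strand, and because the strand setting is unknown, reads of such pairs may not be told apart. Gclm and Ftl1 also overlap exons of a gene on the same strand, where no strand setting would separate the reads. Alternatives were other pseudocounts and filters, TPM, another scaling, robust moderation, library weights, a block by column number, and each library left out in turn.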

Additional observations from a re-analysis of the deposited data

Results flagged for a closer look

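In each diet, the highest and lowest of the 4 values of every member were compared with the rest by Dixon's ratio, over 80 groups. This rule marks about 1 in 20 groups by chance, and it marked 2. Gclc in normal-salt library 1 was far below the other normal-salt libraries, at 295 CPM against 372 to 378. Gstt1 in the same library was far above the others, at 488 CPM against 304 to 328. Both values stand in normal-salt library 1, which had the highest value of its diet in 27 of 39 members, so Gclc departed in the other direction from most members. Without that library the log2 difference of Gclc was -0.31 (limma adjusted p = 0.170) and that of Gstt1 was 0.11.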

How the results depend on the processing

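The count of called members was 0 in the analysis as reported and in all 17 alternatives, and so was that of the further genes of like roles. Over all genes, 11 were called, against 0 without a filter on low values, 5 in TPM, 22 with robust moderation, 129 with library weights, and 0 to 50 when libraries were left out in turn. The cause was not tested. Of the 39 members, 16 kept their sign in every alternative. In the 9 alternatives other than leaving out a library, 14 members changed sign in at least 1. Among these 9 is the block by column number, whose difference between diets does not draw on all libraries, as described below. Srxn1, Prdx2, Hmox2, Ftl1, Fth1 and Cyba changed sign in that fit alone among the 9. In log2, TPM gave Sod2 0.10, Cat 0.031 and Prdx1 0.082. Library weights gave Txn2 0.025, Sod1 0.0032, Sod2 0.021, Cat 0.0038, Prdx1 0.015 and Gstt1 0.10. Median-ratio scaling gave Txnrd2 -0.0059, and a pseudocount of 5 gave Txnrd2 -0.0020 and Sod3 0.013.

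Column numbers 2, 3 and 6 occur in both diets. Deviations of same-numbered libraries correlated at 0.21, 0.29 and 0.0020, and those of different-numbered libraries at -0.27 to 0.30. With so few same-numbered libraries, and with deviations taken from the mean of each diet, these values cannot decide whether the numbers mark pairs. The main fit did not use the numbers. A block by column number called 38 genes and 0 members and put 33 members higher and 6 lower. Normal-salt library 1 and high-salt library 4 have no library of the same number in the other diet. They therefore do not enter the difference between diets in that fit. The fit without normal-salt library 1 gave the same counts, 33 higher and 6 lower. The block turned Txn2 to 0.079, Srxn1 0.017, Sod1 0.044, Sod2 0.16, Cat 0.029, Prdx1 0.080, Prdx2 0.014, Gstt1 0.081, Hmox2 0.012, Ftl1 0.034, Fth1 0.10 and Cyba 0.058.

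Leaving out 1 library at a time changed the sign of 23 members, which then ranged as follows: Cat -0.052 to 0.026, Cyba -0.14 to 0.046, Fth1 -0.18 to 0.071, Ftl1 -0.14 to 0.017, Gpx1 -0.053 to 0.18, Gpx3 -0.0082 to 1.46, Gpx4 -0.053 to 0.20, Gss -0.049 to 0.091, Gstm5 -0.056 to 0.15, Gstt1 -0.11 to 0.11, Hmox1 -0.11 to 0.23, Hmox2 -0.17 to 0.0056, Pgd -0.060 to 0.10, Prdx1 -0.15 to 0.10, Prdx2 -0.18 to 0.0099, Prdx6 -0.030 to 0.10, Sod1 -0.19 to 0.074, Sod2 -0.16 to 0.10, Sod3 -0.29 to 0.40, Srxn1 -0.17 to 0.022, Txn1 -0.019 to 0.26, Txn2 -0.10 to 0.085 and Txnrd2 -0.13 to 0.12. Precision is limited by the 4 libraries per diet, and for Nox4, Sod3 and Gpx7, at a few CPM or less, by low counts as well.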

Other observations

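A few of the further genes, chosen after their values were seen, had patterns over libraries that belong to no comparison above. Gpx6, a glutathione peroxidase, stood at 23.5, 6.34, 4.20 and 11.6 CPM under normal salt and at 1.71, 1.24, 3.28 and 30.4 CPM under high salt. Its 2 highest values were in the 2 libraries with the highest sums of thick-ascending-limb markers, which were 2641, 1303, 1004.5 and 2038 CPM under normal salt and 436, 511, 756 and 3215 CPM under high salt, and the part of such RNA in its values was not tested. Txnip, the inhibitor of thioredoxin, gave 1712, 2509.9, 2614 and 2952 CPM under normal salt and 2390.4, 2339, 2289 and 1967 CPM under high salt. Under normal salt it was lowest in library 1 and highest in library 6, the reverse of most members. Nnt, the mitochondrial transhydrogenase in which the C57BL/6J strain carries a known deletion, gave 172, 61.0, 80.6 and 67.7 CPM under normal salt and 70.4, 92.4, 84.0 and 109 CPM under high salt, values per gene that do not show which exons were read.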
